A study of Homo sapiens with 6 samples.

Results

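The interferon regulatory factors (IRFs) were followed in U937T:PLZF-RARa cells with and without the fusion protein PLZF-RARA. The members were IRF1, IRF2, IRF3, IRF4, IRF5, IRF7, IRF8 and IRF9, read through every probe set whose platform annotation gives 1 symbol and gives one of these. That made 13 probe sets for 8 genes, of 54613 probe sets and 19775 named genes on the array. U937T:PLZF-RARa is a human monocytic leukaemia line derived from U937 and engineered so that PLZF-RARA, the fusion of the repressor PLZF (ZBTB16) with the retinoic acid receptor RARA, is made when tetracycline is withdrawn. The 3 uninduced samples came from cells kept in medium with tetracycline at 0.1 ug/ml, and the 3 induced samples from cells that were washed and then grown for 48 h without it. All 6 samples carry the same engineered construct and were grown under puromycin and G418. Cells of this line without the construct, washed and taken off tetracycline in the same way, are not among the 6 samples, so the loss of tetracycline and the gain of the fusion cannot be told apart. The labels number the replicates without saying whether they were separate cultures, so a p-value here measures the spread between these samples, which may be technical.

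IRFs are transcription factors that share a DNA-binding domain and recognise GAAA repeats, as in the interferon-stimulated response element (ISRE). IRF3 and IRF7 are activated by sensors of microbial nucleic acid and turn on interferon genes; IRF9 joins phosphorylated STAT proteins to carry the interferon signal to its target genes; IRF1 activates and IRF2 often represses such targets. IRF8, and IRF4 in lymphocytes, bind DNA weakly alone and act with partners such as PU.1 (SPI1), and IRF8 directs monocyte and dendritic cell development.

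Promoter sequence from RefSeq (GRCh38.p14) was held for 5 of the 8 genes, as 9 windows of 250 bases that end at a transcript start. No window was held for IRF2, IRF3 or IRF7. The 4 windows below are shown because they belong to genes that rose (IRF1, IRF5, IRF9) or fell (IRF8) in the comparison. Capitals mark a match, on either strand, to the ISRE (GAAANNGAA), the gamma-activated site of STAT proteins (GAS, TTCNNNGAA), the composite site of PU.1-type and IRF factors (GGAANNGAA) or the NF-kB site. The ISRE and the composite site share their GAA end, and the GAS reads the same on both strands.
IRF1, chr5:132490774-132491023, minus strand: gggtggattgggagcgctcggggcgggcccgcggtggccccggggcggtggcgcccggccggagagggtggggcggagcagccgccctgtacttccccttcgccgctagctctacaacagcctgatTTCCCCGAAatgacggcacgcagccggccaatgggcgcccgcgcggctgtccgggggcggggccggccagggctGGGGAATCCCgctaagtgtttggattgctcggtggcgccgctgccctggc
IRF9, chr14:24161015-24161264, plus strand: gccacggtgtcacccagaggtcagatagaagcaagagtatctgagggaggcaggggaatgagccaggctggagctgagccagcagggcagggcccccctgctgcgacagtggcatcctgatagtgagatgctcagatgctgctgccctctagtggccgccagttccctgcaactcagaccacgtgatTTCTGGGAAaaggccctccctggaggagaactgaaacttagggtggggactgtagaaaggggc
IRF5, the one of its 4 windows with a match, chr7:128940420-128940669, plus strand: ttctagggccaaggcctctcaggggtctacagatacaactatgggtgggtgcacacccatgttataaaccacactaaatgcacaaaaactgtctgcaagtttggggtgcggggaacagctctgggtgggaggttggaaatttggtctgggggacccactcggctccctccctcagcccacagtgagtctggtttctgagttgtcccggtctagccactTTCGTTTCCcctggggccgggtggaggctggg
IRF8, the upstream one of its 2 overlapping windows, chr16:85902580-85902829, plus strand: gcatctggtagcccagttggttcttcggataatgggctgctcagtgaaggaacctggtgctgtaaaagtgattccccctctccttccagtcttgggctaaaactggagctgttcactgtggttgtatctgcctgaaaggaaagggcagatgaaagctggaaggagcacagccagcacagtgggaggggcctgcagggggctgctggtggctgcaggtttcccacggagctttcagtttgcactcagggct
In the IRF1 window the GAS match TTCCCCGAA lies from -124 to -116 and the NF-kB match GGGGAATCCC from -50 to -41, counted back from -1 at the base before the start. The IRF9 window holds the GAS match TTCTGGGAA from -63 to -55. The IRF5 window holds the composite match, TTCGTTTCC on the strand shown, from -32 to -24. No letters of the 4 motifs were matched in either IRF8 window, in the IRF4 window or in the other 3 IRF5 windows. Sequence before any other transcript start of these genes was not searched, so the promoters as a whole are not described. Over all 35116 RefSeq windows of the same length, 6.88% held an ISRE, 6.57% a GAS, 6.58% a composite and 9.96% an NF-kB match. A match is a description of letters and not a shown binding site.

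Each sample was read on 1 Affymetrix HG-U133 Plus 2.0 array, and levels are log2 of the deposited GCRMA intensity. The test covered the 20552 probe sets with a log2 level above 4 on at least 3 of the 6 arrays. Over these, r was 0.9963 to 0.9976 between arrays of a group and 0.9317 to 0.9381 between groups. Uninduced replicate 3 had the lowest 75th percentile (6.92 against 7.11 to 7.18 on the others), and it was the lowest uninduced array for 71.5% of all tested probe sets and for 8 of the 10 tested IRF probe sets. The GAPDH control spots for RNA integrity, read as 3' minus 5' on the log2 scale, gave 0.48 to 0.53 in uninduced and 0.55 to 0.62 in induced samples, and its part in the results was not tested. Of 10 myeloid marker genes with a probe set 8 were above the filter, while MPO and FCGR1A were not. The granule genes read lower in induced samples, with ELANE at 12.92 ± 0.11 and 10.12 ± 0.12, CTSG at 13.61 ± 0.11 and 11.80 ± 0.11, AZU1 at 13.52 ± 0.12 and 12.20 ± 0.09 and LYZ at 13.98 ± 0.04 and 13.13 ± 0.11 (SD, n = 3, uninduced and induced). CSF3R was at 8.10 ± 0.06 and 7.47 ± 0.15, while PTPRC (CD45) was at 12.15 ± 0.08 and 13.92 ± 0.02, CD4 at 9.34 ± 0.12 and 9.58 ± 0.04 and ITGAM at 4.22 ± 0.38 and 5.20 ± 0.14. Their summed linear intensity was 50344 to 56659 in uninduced and 34815 to 34993 in induced samples. Markers of cell types in which IRF4 and IRF8 are also known to act were mostly below the filter: 4 of 5 for B and plasma cells (all but PAX5, 4.90 and 4.76), 4 of 5 for plasmacytoid dendritic cells (all but TCF4, 8.37 and 9.05) and 5 of 6 for T and NK cells (all but NCAM1, 8.66 and 9.77). Their summed linear intensities were, in uninduced and induced samples, 63.3 to 65.1 and 67.4 to 72.3, 349 to 398 and 554 to 589, and 386 to 467 and 865 to 921, respectively. TCF4 and NCAM1 made up most of the sums for plasmacytoid dendritic cells and for T and NK cells. Those sums therefore follow single genes and do not measure a cell type. Fewer cells of a type and less RNA per cell cannot be told apart in such bulk samples.

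Of the 8 genes 5 rose, IRF8 fell, IRF4 lay below the filter and IRF3 did not pass the test. IRF7, IRF2, IRF9 and IRF1 rose most, though IRF1 rose in only 1 of its 2 probe sets, and IRF5 rose in 2 of its 3 probe sets. Of the 10 tested IRF probe sets 6 were higher in induced samples, where 34.6% of all tested probe sets were higher, 1 was lower, where 27.9% of all were, and 3 did not pass (limma, Benjamini-Hochberg adjusted p under 0.05 over all tested probe sets). Groups were apart, with no overlap, in 7 of the 10, against 70.2% of all tested probe sets. A rise of at least 4-fold on the measured scale was called in 3 of the 10 (IRF2, IRF7 and IRF9), where 2.90% of all tested probe sets had one. A fall of that size was called in 1, where 1.47% had one. IRF7 and IRF9 met the filter only through their induced arrays, so their place in the counts of rises partly follows from the filter. For IRF7 the fold is only a bound, and IRF9 has no sound fold. The shares over all tested probe sets include such cases too. Without uninduced replicate 3 the count of lower probe sets was 2, IRF3 being the added one. The median difference was 0.87 over the 10 and 0.03 over all tested probe sets. With most of the array changed, a call alone does not set an IRF apart. The sizes below carry more than the counts where both groups lay above the filter.

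**Figure D1:**
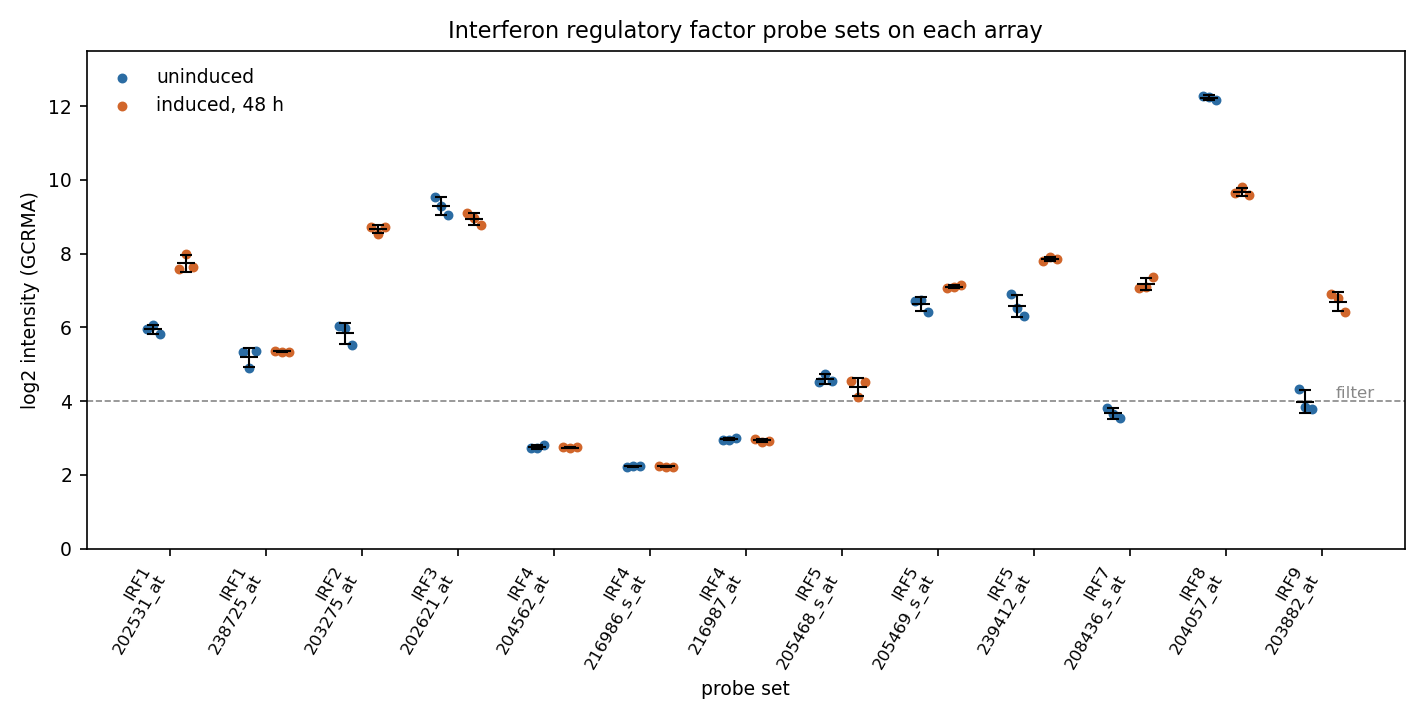
Log2 GCRMA intensity of the 13 IRF probe sets on each of the 6 arrays, with uninduced samples in blue and induced samples in orange, drawn from replicate 1 to 3 from left to right; bars give mean ± SD (n = 3) and the dashed line the filter at 4. IRF7 crosses the filter upon induction, the single IRF8 probe set drops from about 12.23 to 9.67, and the 3 IRF4 probe sets stay under the filter on all arrays.

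Among the factors that turn on interferon genes, IRF7 rose from below the filter. Its only probe set, 208436_s_at, read 3.82, 3.66 and 3.53 in the uninduced and 7.08, 7.09 and 7.37 in the induced samples. As an _s_at probe set it may bind other transcripts. All 3 uninduced arrays lay under the filter and all 3 induced arrays far above it. IRF7 was therefore at least 9.04-fold higher, taking the log2 level of 4 as the floor (limma, adjusted p = 1.16e-06, measured means 3.67 ± 0.15 and 7.18 ± 0.16, SD, n = 3 each). This probe set met the filter only through its induced arrays, so the direction of its difference was fixed before the test.

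IRF3, which is made constitutively in most cells and is activated by phosphorylation, had a high signal in both groups and did not pass the test. Its probe set 202621_at read 9.52, 9.29 and 9.04 in uninduced and 9.09, 8.95 and 8.78 in induced samples. The groups overlapped, with uninduced replicate 3 below induced replicate 1. The difference was -0.34 (95% interval -0.67 to -0.01; limma, adjusted p = 0.0667), so a fall of up to 1.59-fold was inside the interval. Without uninduced replicate 3 the difference was -0.47 and passed (limma, adjusted p = 0.0172), and IRF3 was also lower after quantile normalization (-0.40, adjusted p = 0.0151) and median centring (-0.42, adjusted p = 0.00986); over the 13 alternatives the adjusted p ran from 0.00903 to 0.222.

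IRF5, a factor of Toll-like receptor signalling in myeloid cells, gave different readings on its 3 probe sets. Probe set 239412_at read 6.92, 6.52 and 6.32 in uninduced and 7.80, 7.91 and 7.86 in induced samples. The groups were apart, and the rise was 2.42-fold (95% interval 1.90 to 3.08; limma, adjusted p = 2.74e-04). Probe set 205469_s_at read 6.73, 6.75 and 6.43 against 7.07, 7.09 and 7.14. This smaller rise of 1.38-fold (95% interval 1.17 to 1.62; limma, adjusted p = 0.00506) also left the groups apart. Probe set 205468_s_at, close to the filter, read 4.52, 4.75 and 4.53 against 4.54, 4.11 and 4.51. Its groups overlapped and it did not pass (difference -0.21, 95% interval -0.53 to 0.10; limma, adjusted p = 0.203), but it was lower after quantile normalization (-0.36, adjusted p = 0.0247; the alternatives ran from that value to 0.545). The within-array differences between these probe sets had group means that differed by 0.81, 1.48 and 0.67, with the groups apart in each case and an exact two-sided permutation p of 0.1, the least that this number of arrays can give. Which transcripts of IRF5 each probe set reads was not analysed here.

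IRF9, the DNA-binding part of the complex that answers type I interferon, came up from the edge of the filter. Its probe set 203882_at read 4.34, 3.85 and 3.78 in uninduced and 6.90, 6.79 and 6.41 in induced samples. Only 1 of the 3 uninduced arrays was above the filter, which leaves no sound fold, and the groups lay far apart. The filter was thus met only through the induced arrays. The measured difference was 2.71 (95% interval 2.27 to 3.15; limma, adjusted p = 2.30e-05).

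IRF1 and IRF2, which compete for the same sites, both rose. The IRF1 probe set 202531_at read 5.97, 6.06 and 5.81 in uninduced and 7.58, 8.003 and 7.63 in induced samples. With no overlap between the groups, the rise was 3.46-fold (95% interval 2.80 to 4.27; limma, adjusted p = 2.84e-05). The second IRF1 probe set, 238725_at, read 5.34, 4.90 and 5.35 against 5.37, 5.34 and 5.35. It was level on 5 of the 6 arrays and low in uninduced replicate 2, and did not pass (difference 0.16, 95% interval -0.14 to 0.46; limma, adjusted p = 0.316). After quantile normalization its difference was -0.05, and it passed in none of the 12 alternatives that measured it (limma, adjusted p 0.107 to 0.946). Between the IRF1 probe sets the within-array difference was 0.75 ± 0.37 in uninduced and 2.39 ± 0.24 in induced samples (SD, n = 3 each; exact two-sided permutation p = 0.1).

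The IRF2 probe set 203275_at read 6.03, 5.98 and 5.52 in uninduced and 8.71, 8.54 and 8.73 in induced samples. The induced samples were closely grouped and well above all uninduced ones, and the rise was 7.05-fold (95% interval 5.57 to 8.93; limma, adjusted p = 6.63e-06). IRF2 minus IRF1 (202531_at) within an array was 0.06, -0.08 and -0.29 in uninduced and 1.13, 0.54 and 1.10 in induced samples. The group means of this difference were 1.03 apart on the log2 scale, with no overlap and an exact two-sided permutation p of 0.1. In all, 6 such within-array pairs were compared, and each had an exact permutation p of 0.1 before and after Benjamini-Hochberg adjustment. The pair of IRF7 and IRF3 is counted among the 6, but its difference is given no value, since IRF7 was below the filter on all uninduced arrays.

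IRF8, the monocyte and dendritic cell factor, was the family member that fell past the threshold. Its probe set 204057_at read 12.28, 12.24 and 12.16 in uninduced and 9.64, 9.80 and 9.59 in induced samples. Both groups were tight and lay far apart, and the level in induced samples was still well above the filter. The change was -2.55 on the log2 scale, 5.86-fold lower (95% interval 5.16 to 6.65; limma, adjusted p = 9.97e-07). Of all tested probe sets 0.681% had a measured difference at least as low, counted with no condition on the adjusted p. The myeloid granule markers ELANE, CTSG, AZU1 and LYZ were lower in the same samples, and their part in the IRF8 result was not tested. IRF4, its closest relative in the family and a factor of lymphocytes and plasma cells, lay under the filter in all 3 of its probe sets and received no test. Probe set 204562_at had means of 2.76 and 2.74, 216986_s_at of 2.24 and 2.23 and 216987_at of 2.97 and 2.94 in uninduced and induced samples, and no array was above 3.01.

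**Figure D2:**
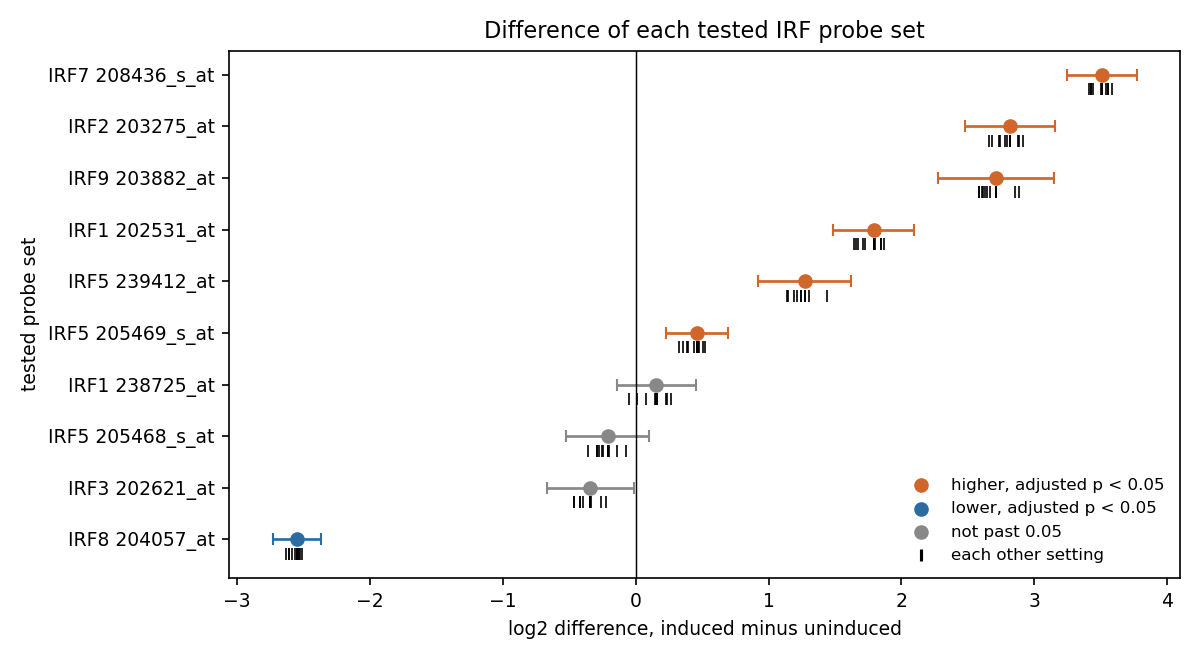
Log2 difference, induced minus uninduced, of the 10 tested IRF probe sets, with 95% intervals from limma. Black ticks below each give the difference under every other setting run on these probe sets. The 6 rises and the IRF8 fall lie clear of 0 under all of these settings, the IRF3 interval ends at -0.01, and the ticks of 238725_at (IRF1) fall on both sides of 0.

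**Figure D3:**
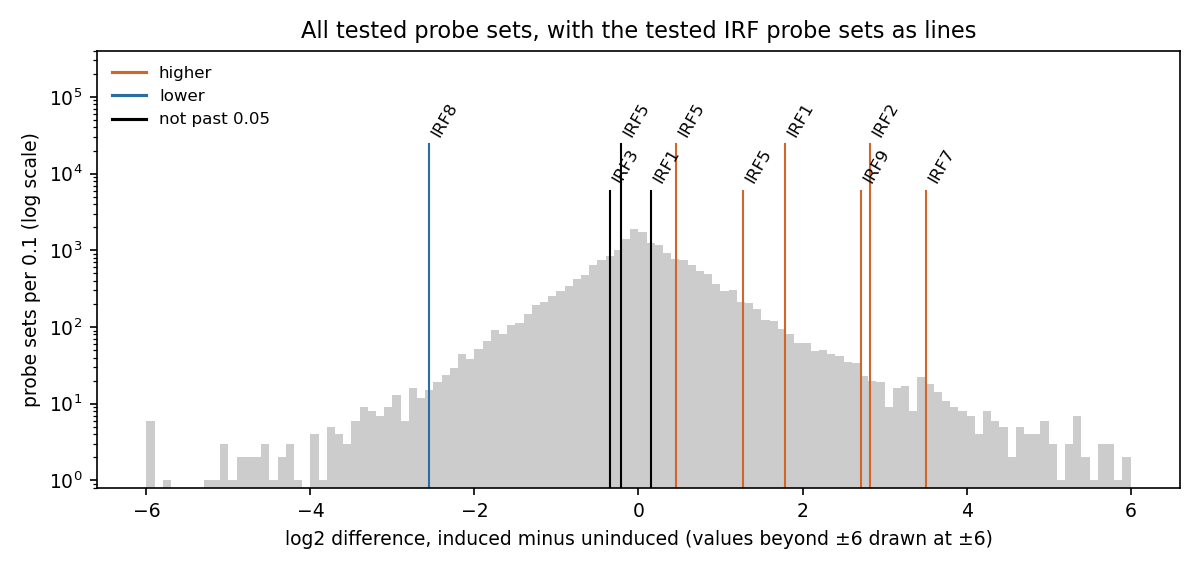
Number of tested probe sets per 0.1 of log2 difference (log axis), over all 20552, with the 10 tested IRF probe sets as labelled lines. IRF7, drawn at a measured 3.51 that starts below the filter, and IRF8, at -2.55, lie in the sparse tails, and IRF3 and the lesser IRF1 and IRF5 probe sets lie in the central peak.

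For IRF7 and IRF8 the 3 genes with the most similar course over the 6 arrays were found by the root mean square difference of mean-centred log2 levels. For IRF7 they were LDLRAD4, GAS1 and ADRB1, but the uninduced means of IRF7, LDLRAD4 and GAS1 lay below the filter (3.67, 2.91 and 3.85), so neither the size of their differences nor this order is sound. For IRF8 they were EIF4EBP1, an inhibitor of cap-dependent translation (0.050; -2.54), PRAM1, an adaptor protein of myeloid cells (0.055; -2.58) and DESI1 (0.060; -2.52). With 6 arrays in 2 groups this likeness mostly says that the changes were of the same size.

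Genes around the IRFs were described by 8 lists with 140 genes, a gene being read by the brightest of its tested probe sets, on the mean over the arrays. Of 89 measured genes 44 were higher and 21 lower, where 35.8% of all 9836 tested genes were higher and 30.7% lower, and 24 did not pass (limma, adjusted p under 0.05). The median difference was 0.29 over the 89 genes and 0.02 over all tested genes.

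The ligands came first in the pathway and were not seen. Of 20 interferon genes 18 had a probe set, and 0 of these passed the filter, so none was tested. IFNB1 was at 2.36 and 2.35, IFNA2 at 2.17 and 2.16 and IFNG at 2.27 in both groups. IFNL1, a type III interferon, had means of 2.87 and 3.44, and its highest array, at 3.69, was the highest of any of the 18. Levels this low on a GCRMA scale do not show that the genes were silent.

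Receptor and JAK genes rose or did not pass. Of 8 measured genes 5 rose and 0 fell, with a median of 0.51. The type I receptor chain IFNAR1 was 1.57-fold, the interferon gamma receptor chain IFNGR2 1.41-fold, IL10RB, a chain of the type III receptor, 1.66-fold and the kinase JAK1 1.94-fold higher (limma, adjusted p = 0.00294, 0.0018, 5.25e-05 and 9.58e-05). The partner chain IFNGR1 and the kinase TYK2 did not pass. The partner chain IFNAR2 did not pass on its representing probe set, an _x_at one, but 1 of its 3 tested probe sets rose.

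The sensors, adaptors and kinases that activate IRF3, IRF5 and IRF7 went both ways, with 5 of 16 higher, 5 lower and 6 not past the threshold (median 0.11). With no _x_at or _s_at probe sets, which may bind other transcripts, the number lower was 2, since all tested probe sets of TASL, TLR4 and IRAK1 end so; with no filter the number higher was 3. TASL, the adaptor through which endosomal Toll-like receptors reach IRF5, fell from 12.70 ± 0.08 to 10.21 ± 0.17 (SD, n = 3 each), 5.63-fold lower (limma, adjusted p = 2.85e-06), on a single probe set. The endotoxin receptor TLR4 was 3.40-fold, the kinase IRAK1 2.09-fold and the adaptor TRAF3 1.71-fold lower (adjusted p = 1.55e-05, 1.99e-05 and 1.41e-04). TBK1, the kinase of IRF3 and IRF7, was 1.22-fold and the RNA sensor RIGI 1.59-fold higher (adjusted p = 0.011 and 1.55e-04), and both were named after their values were seen. RIGI was read by a single probe set, also an _x_at one. The RNA sensor IFIH1, likewise named after its value was seen, was 1.32-fold lower (limma, adjusted p = 0.00649). Of its 2 tested probe sets 1 was called lower. TLR3, TLR7 and TLR8 were under the filter.

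DNA-binding partners of the IRFs were likewise split, with 3 of 8 higher and 3 lower (median -0.04). PU.1 (SPI1), with which IRF8 and IRF4 bind composite sites, had means of 7.12 ± 0.19 and 3.16 ± 0.33 (SD, n = 3 each). It fell at least 8.70-fold (limma, adjusted p = 4.32e-06). This probe set met the filter only through its uninduced arrays, so the direction of its difference was fixed before the test. JUNB, an AP-1 subunit of the kind that joins BATF and IRF4, was 3.14-fold lower, JUN 1.91-fold higher and the lymphoid factor IKZF1 1.80-fold higher (adjusted p = 2.04e-05, 6.18e-05 and 5.11e-05). SPIB, the relative of PU.1, was under the filter.

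Cofactors and regulators of IRFs rose in 4 and fell in 3 of 11 cases (median -0.08), and 5 fell after quantile normalization. The acetyltransferase KAT2B, which acetylates IRF proteins, was 4.18-fold and the coactivator EP300 2.18-fold higher, while the related acetyltransferase KAT2A was 2.90-fold lower (limma, adjusted p = 7.70e-07, 4.17e-05 and 8.87e-05). IRF2BP2, a corepressor that binds IRF2, was 2.04-fold lower (adjusted p = 4.00e-05), in the opposite direction to IRF2. Among feedback inhibitors of interferon signalling 3 of 8 rose and 2 fell (median -0.04); 4 fell after quantile normalization and 1 with no _x_at or _s_at probe sets. SOCS1, which blocks JAK kinases, rose at least 3.20-fold (limma, adjusted p = 7.66e-05). It met the filter only through its induced arrays, so the direction of its difference was fixed before the test. USP18, which removes ISG15 and blocks the type I receptor, rose 4.68-fold (limma, adjusted p = 5.56e-07). The phosphatase PTPN6 (SHP-1) was 3.40-fold lower (adjusted p = 4.51e-05). PTPN2 was 1.49-fold lower on its representing probe set (adjusted p = 1.37e-04), but 1 of its 3 tested probe sets rose.

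Interferon-stimulated genes, the classical targets of ISRE binding, rose in 20 and fell in 7 of 33 measured cases, with a median of 0.66, and 11 of the 44 listed were under the filter. The number lower was 11 with quantile normalization, median centring or array weights, and 4 without induced replicate 3 or without uninduced replicate 2, and the number higher was 12 with no _x_at or _s_at probe sets. IFIT1 and IFIT2, inhibitors of viral translation, rose by at least 14.1-fold and at least 29.0-fold (limma, adjusted p = 3.94e-07 and 1.02e-06). The death ligand TNFSF10 rose by at least 15.6-fold and IFI16, which senses DNA, by 13.1-fold (limma, adjusted p = 3.47e-08 and 3.60e-07). IFIT1, IFIT2, TNFSF10 and OAS1 met the filter only through their induced arrays, so the direction of their differences was fixed before the test. The count of 20 and the median thus partly follow from the filter. Others did not rise. MX2, named after its value was seen, was 1.90-fold lower (limma, adjusted p = 1.39e-04), and MX1, IFI27 and IFI44L lay under the filter. Immunoproteasome genes were split, with PSMB9, a known IRF1 target, 5.25-fold higher and PSMB8 and PSMB10 1.25-fold and 1.58-fold lower (adjusted p = 7.69e-05, 0.0183 and 3.43e-04; named after their values were seen).

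Of 6 measured genes in the list of IRF8 targets of myeloid cells 4 rose and 1 fell (median 0.51), while IRF8 itself fell. With no _x_at or _s_at probe sets 2 rose, since all tested probe sets of KLF4 and TNFAIP3 end so, and after quantile normalization 2 fell. KLF4, a monocyte factor that IRF8 is known to activate, went from 5.68 ± 0.47 to 8.97 ± 0.04 (SD, n = 3 each), 9.79-fold higher (limma, adjusted p = 1.98e-05). The protease inhibitor CST3 was 1.70-fold and the NF-kB inhibitor TNFAIP3 4.29-fold higher, and the acid ceramidase ASAH1, known to be repressed by IRF8, was 1.83-fold lower (adjusted p = 3.16e-04, 1.32e-06 and 2.53e-05). The oxidase subunit CYBB and IL12B were under the filter.

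**Figure D4:**
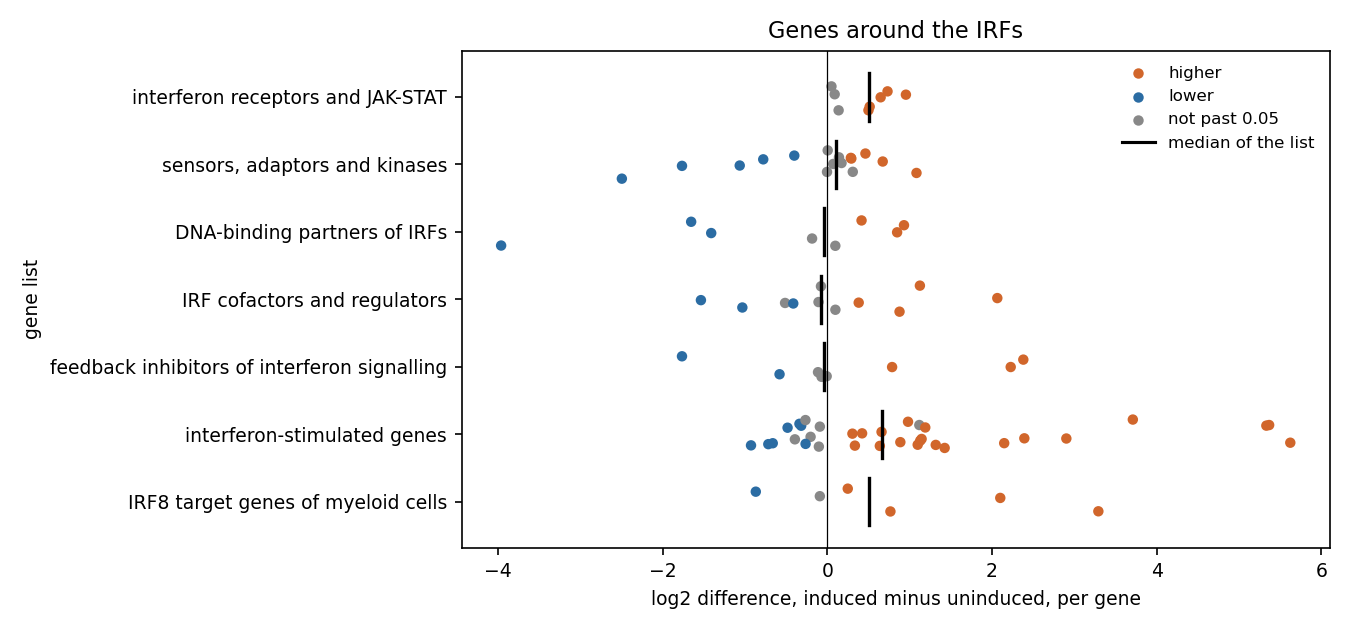
Log2 difference, induced minus uninduced, of each measured gene in the 7 lists that had any, with higher genes in orange, lower in blue and those not past 0.05 in grey; black bars are list medians. Only the sensor, partner and cofactor lists and the feedback inhibitors have medians within 0.11 of 0, and the interferon-stimulated genes reach from -0.93 to 5.62.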

How the data were processed

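Samples were grouped by their titles. The deposited intensities, 1 per probe set and array on a linear scale, come from GCRMA, which the submitters' processing notes name without a version; later scaling is not stated. GCRMA compresses dim values, so differences that start or end low are distorted. The log2 was taken after raising 6 values under 1 to 1, and 62 control probe sets were left out. Annotation named a single gene for 41091 probe sets, several for 1801 and none for 11721; 41037 were found by gene identifier in the RefSeq table with 0 symbols changed. The comparison used lmFit and two-sided eBayes (limma 3.58.1, R 4.3.3), adjusted over the 20552 probe sets above the filter. Where every array of a group lay at or below a log2 level of 4, the fold is a bound against that level. Such a probe set met the filter only through the other group, which fixed the direction of its difference. Intervals are limma's, for 1 probe set each. Words of rise and fall are kept for calls past 0.05. The number of arrays limits the precision.

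The members and lists were chosen with earlier results of these data known. Genes named from a list are the 4 with the smallest adjusted p unless said otherwise; those most like IRF7 and IRF8 were found by rule. Alternatives were no filter, a filter at 6, quantile normalization, median centring, a trended and robust eBayes, array weights, a replicate block, each array left out and, for lists, the mean over probe sets and no _x_at or _s_at probe sets. The fit was also run on simulated data in which 200 probe sets were changed. That is far fewer than were called here, so the simulation does not measure the error of these calls. Plots used matplotlib 3.10.9 (Python 3.11.15).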

Additional observations from a re-analysis of the deposited data

How the results depend on the processing

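The 6 rises and the fall of IRF8 kept their direction and stayed past the threshold under all 13 alternatives run on the probe sets, with IRF7 at a measured 3.41 to 3.58, IRF2 at 2.66 to 2.91 and IRF8 at -2.63 to -2.51. The setting with no _x_at or _s_at probe sets was not among these. It would leave out 208436_s_at, the only IRF7 probe set, and 205469_s_at, which carries the smaller IRF5 rise. The calls of IRF3 and of the IRF5 probe set 205468_s_at changed. The IRF3 difference passed with array weights (-0.47), a filter at a log2 level of 6 (-0.34), median centring (-0.42), quantile normalization (-0.40), a trended and robust eBayes (-0.34), the replicate number as a block (-0.34) and without uninduced replicate 3, with values of -0.47 to -0.22 when 1 array was left out; its adjusted p was 0.00903 to 0.222. The IRF5 probe set 205468_s_at passed after quantile normalization (-0.36; adjusted p 0.0247, in a range up to 0.545), and its values with 1 array left out were -0.29 to -0.07. The number of lower IRF probe sets was accordingly 2 under each of these settings and 3 after quantile normalization, and 1 to 2 with 1 array left out; the number of higher ones was 6 throughout. The replicate numbers do not mark a known pairing: deviations of same-numbered samples correlated at -0.17, 0.00 and 0.18, and with that block the array as a whole had 7099 higher and 5710 lower probe sets, against 7112 and 5733.

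Over the whole array lower calls outnumbered higher ones after quantile normalization (6750 higher, 8111 lower) and after median centring (6573 and 7124), which move the median difference from 0.03 to -0.06 and -0.05. In the pathway lists 31 to 45 genes were higher and 16 to 31 lower over 15 alternatives, the lowest count of higher genes coming from the fit with no _x_at or _s_at probe sets. In that fit 12 interferon-stimulated genes and 2 IRF8 targets were higher, and 2 sensor-list genes and 1 feedback inhibitor lower. With no filter 3 sensor-list genes were higher, and after quantile normalization 5 cofactors, 4 feedback inhibitors and 2 IRF8 targets were lower. The lower count of interferon-stimulated genes was 11 with quantile normalization, median centring and array weights, and 4 without induced replicate 3 or uninduced replicate 2. A dim start limits IRF7 and IRF9, whose rises are bounds or differences on the measured scale.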
